A study of Mus musculus with 2 samples.

Results

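The genes of oxidative phosphorylation were followed across the cell types of mouse embryos at E11.5, and the transcripts made inside the mitochondrion were set against those made in the nucleus. Members were gene rows whose symbol starts with mt-, Nduf, Uqcr or Atp5, or with Cox4 to Cox8. The rule took in 105 of 21937 gene rows, of which 13 are encoded by mitochondrial DNA and 92 by nuclear DNA. Of the nuclear rows, 82 are subunits of complexes I, III, IV and V, 8 are assembly factors of complex I, 1 is the supercomplex factor Cox7a2l and 1 is a pseudogene of Cox5b. At least 1 UMI (a tagged transcript molecule) was counted for 104 members, and Cox8c, a subunit form known from testis, was at 0. A further 7 members had under 500 UMIs, so that 8 members in all were rare.

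Mitochondria make ATP with 4 protein complexes of mixed origin in which electrons pass through complexes I, III and IV, protons are pumped across the inner membrane, and complex V (ATP synthase) lets them return. Some core subunits of these complexes are made from mitochondrial DNA, which is transcribed as long molecules that are cut into single messengers, while all other subunits are made from nuclear genes and imported. Mitochondrial messengers stay inside the organelle, nuclear-encoded messengers lie in the cytoplasm, and maturing red cells of mammals lose their mitochondria.

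All cells came from embryos that carried a piggyBac transgene in which the ubiquitous CAG promoter drives EGFP linked to a DNA barcode. The embryos had been produced with gametes of the strain C57BL/6J. F0_8 and F0_9 were founder embryos, 1 embryo each, F1_1 was 1 embryo of the following generation, while F1_mix held a mixture of cells of 2 F1 embryos that served as an artificial mosaic. No embryo without the transgene was in the data. The 4 suspensions were labelled with oligos, pooled and captured together as 1 library, and they shared 0 barcodes. Cells with a cell type in the authors' table numbered 5678 of 6006 deposited barcodes, 1310 to 1599 in each suspension, with a median of 10880 to 13267 gene UMIs per cell. Founders and F1 have 2 suspensions each, and F1_mix is counted as 1.

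The 16 cell type names were those of the authors, who clustered the same cells on their expression, so p-values between types measure only how well a difference repeated over the 4 suspensions. The cells fell into 10 deep types with 4105 cells, 4 shallow types with 1369 cells (Hepatocyte, Foregut, Midgut and Endodermal Progenitor) and 2 red cell types with 204 cells. The median gene UMIs per cell lay between 980 and 1267 in the shallow types of a suspension and between 12558 and 15578.5 in the deep types. Of 4 markers chosen for each name, the summed level was highest in the type of that name for 5 of 10 deep types, 0 of 4 shallow types and 1 of 2 red types. Cells labelled Hepatocyte held 6 UMIs of Alb, Afp, Apoa1 and Ttr together, and cells labelled Midgut held 0 UMIs of their markers. Names whose markers were higher elsewhere included deep types: those of Neuroectoderm/Glia stood at 0.246 per 10000 in their own type (143 UMIs) and at 15.1 in Neuronal Progenitor, and those of CNS Neuron at 56.9 and at 75.0 in Neuroectoderm/Glia. All 16 names are therefore used as the authors' labels of clusters.

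Mitochondrial and nuclear transcripts were present in nearly equal numbers in the deep types and very unequal numbers in the shallow types. The ratio of mitochondrial UMIs to nuclear subunit UMIs was 1.01 ± 0.0709 (SD, n = 4 suspensions) over the deep types and 53.5 ± 13.4 over the shallow types. Listing F0_8, F0_9, F1_1 and then F1_mix, the shallow types had ratios of 59.8, 65.2, 54.5 and 34.4, and the deep types of 1.08, 1.05, 0.981 and 0.921. The groups did not overlap, and the shallow ratio was higher by a factor of 52.6 on average (37.4 to 61.8 within suspensions). Red cells had fewer mitochondrial than nuclear transcripts, with a ratio of 0.630 ± 0.153 in Erythroblast and 0.418 ± 0.106 in Erythrocyte.

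Among the deep types the ratio was lowest in Myoblast/Cardiomyocyte, at 0.827 ± 0.0486, and Neuronal Progenitor, at 0.840 ± 0.0697. It was highest in Gut Mesenchyme/Amniotic Mesoderm, at 1.31 ± 0.0517, where all 4 suspensions (1.24 to 1.36) lay above those of Ependymal Cell, the next type at 1.10 ± 0.0209. From Myoblast/Cardiomyocyte up to Ependymal Cell each type overlapped with the next one over suspensions, read without pairing, while types farther apart in the order could be separate. Of the 15 pairs of neighbours in the order of all 16 types, 11 overlapped over suspensions. The pairs that did not overlap were Erythroblast with Myoblast/Cardiomyocyte, Ependymal Cell with Gut Mesenchyme/Amniotic Mesoderm, Gut Mesenchyme/Amniotic Mesoderm with Hepatocyte, and Foregut with Midgut.

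**Figure D1:**
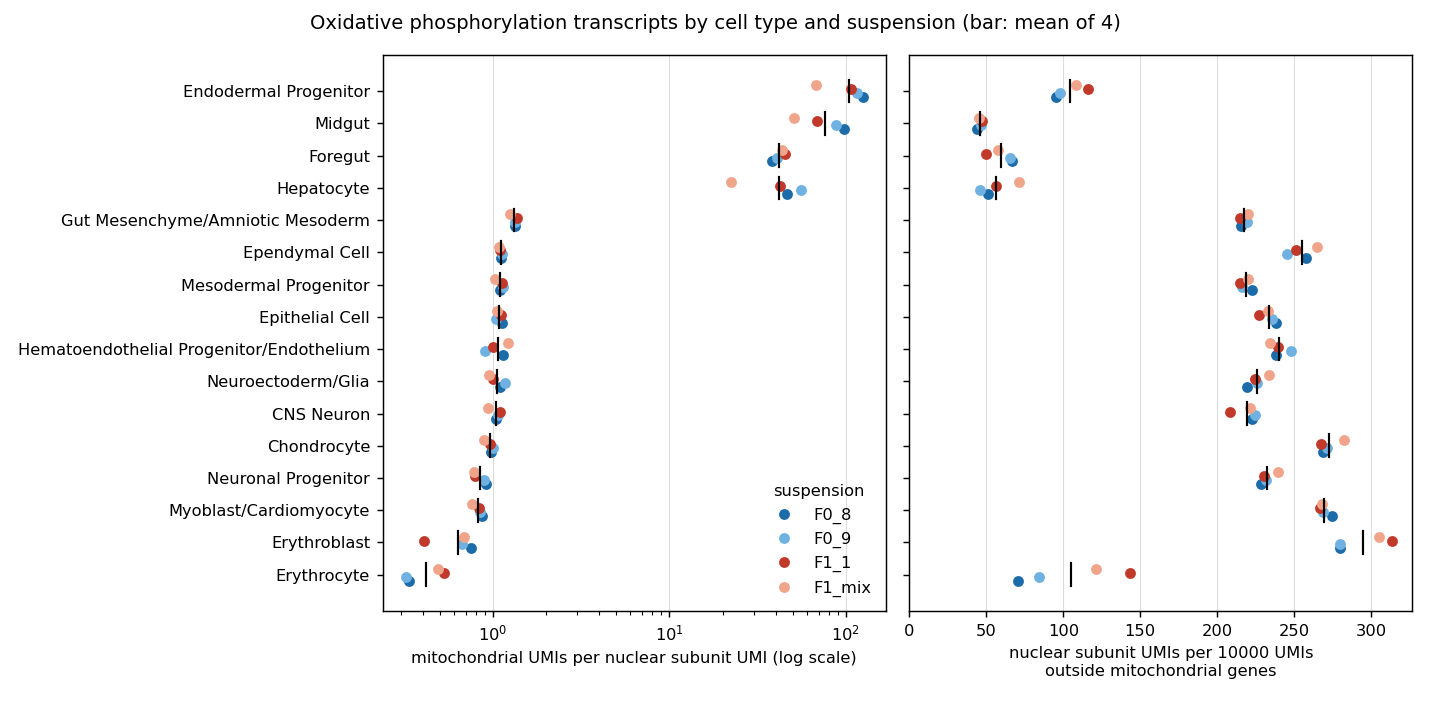
Mitochondrial UMIs per nuclear subunit UMI (left, log axis) and nuclear subunit UMIs per 10000 UMIs outside mitochondrial genes (right) in 16 cell types, 1 point for each suspension and a bar at the mean of 4. The 4 shallow types stand apart from all others in the ratio, with means from 41.6 to 104 against 0.827 to 1.31 in the 10 deep types. Their mean nuclear levels, 45.7 to 104, lie below the 217 to 273 of the deep types, and that of Endodermal Progenitor is level with Erythrocyte at 105.

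As shares of UMIs, both sides of the ratio moved. The mitochondrial share of gene UMIs was 2.33% ± 0.128 in the deep types and 23.1% ± 3.11 in the shallow types. In the same order of suspensions the shallow share was 24.6%, 25.7%, 23.4% and 18.7%, against 2.44%, 2.42%, 2.27% and 2.18% in the deep types. It was lowest in cells labelled Hepatocyte, at 18.1% ± 2.98, and highest in cells labelled Endodermal Progenitor, at 51.2% ± 5.96. The level of nuclear subunits, per 10000 UMIs outside mitochondrial genes, was 237 ± 3.67 in the deep types and 57.6 ± 6.14 in the shallow types, lower by a factor of 4.13 on average (3.62 to 4.43). Per cell, the mitochondrial counts were close and the nuclear counts were far apart. The median shallow cell held 325 to 357 mitochondrial UMIs, depending on the suspension, and the median deep cell 303 to 349.5. For nuclear subunits the median shallow cell held 4 to 5 UMIs and the median deep cell 279 to 355. No nuclear subunit UMI was counted in 49 shallow cells and in 0 deep cells.

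Depth, selection and free RNA moved with this contrast, and their part in it was not tested. Few cells of the groups shared a depth. Among cells with 2000 to under 5000 UMIs outside mitochondrial genes (173 shallow and 52 deep cells), the nuclear level was 53.1 ± 4.0 in shallow and 201 ± 40.2 in deep types, and the ratio was 26.8 ± 4.54 against 2.76 ± 1.82. The groups did not overlap on either measure in this window, which was chosen after seeing the data. The ratio within the shallow types fell from 69.2 ± 8.99 in cells of 500 to under 2000 such UMIs to 9.18 ± 5.07 in the 26 cells of 5000 to under 20000, where 3400 deep cells had 1.05 ± 0.0615. Cells had been kept below a mitochondrial limit of 5%, and the deposited values came close to that limit only over gene and oligo counts together. By that share 1 used cell lay just over 5%, but 1410 used cells had 5% or more of their gene UMIs in mitochondrial genes, 67 of them in deep types, and 220 shallow cells had 50% or more. Of the shallow cells, 30 lay under 5% of gene UMIs. Droplets of 1 to 99 UMIs, 1435074 barcodes that mostly hold free RNA, had a ratio of 1.17, and 53821 droplets of 100 to under 300 UMIs had 2.55.

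The contrast ran through all complexes. By edgeR's quasi-likelihood test, 81 of 87 nuclear members tested fell in the shallow types and 1 rose, and all 13 mitochondrial members rose. Among all 13302 genes tested, 34.1% fell and 26.8% rose. The median log2 fold change was -2.60 for nuclear members, 3.05 for mitochondrial members and -0.13 for all genes. Of the nuclear subunits tested, 36 of 37 fell for complex I (the NADH dehydrogenase), 8 of 8 for complex III (which hands electrons to cytochrome c), 13 of 14 for complex IV (cytochrome c oxidase) and 17 of 18 for complex V. Each shallow type taken alone gave 13 of 13 mitochondrial members higher, and 73 of 85 nuclear members lower in Endodermal Progenitor, 78 of 85 in Foregut, 80 of 87 in Hepatocyte and 80 of 85 in Midgut. In the same fits 12.3% of all genes were lower and 2.05% higher in Endodermal Progenitor, 24.6% and 11.2% in Foregut, 31.9% and 23.8% in Hepatocyte, and 29.4% and 14.5% in Midgut. Scaling by library totals alone left these counts at 81, 1 and 13.

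**Figure D2:**
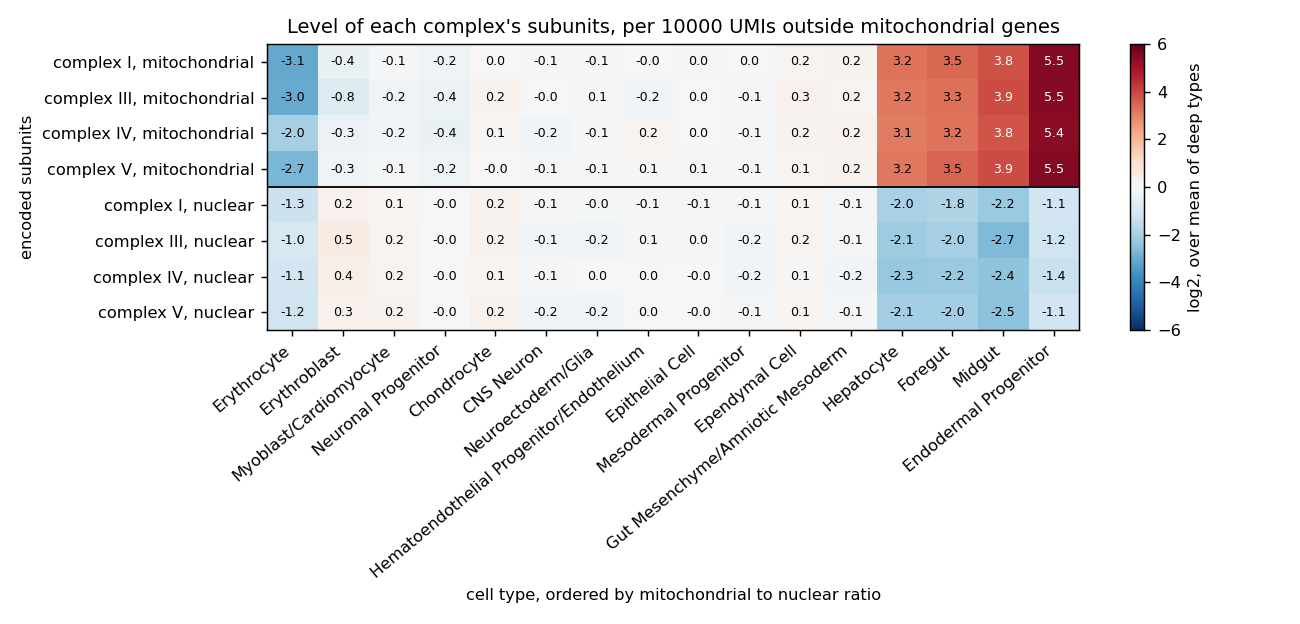
Level of mitochondrial (top) and nuclear (bottom) subunits of complexes I, III, IV and V per 10000 UMIs outside mitochondrial genes, as log2 of the mean over 4 suspensions relative to the mean of the 10 deep types. Shallow types (right) are above the deep mean in all mitochondrial rows and below it in all nuclear rows, and Erythrocyte (left) is below it in all rows on this scale, in which globin fills most of its UMIs.

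The largest fall was that of Ndufa4, a subunit of complex IV. Its level was 1.31, 1.29, 1.2 and 1.52 per 10000 UMIs outside mitochondrial genes in the shallow types of F0_8, F0_9, F1_1 and F1_mix, and 8.23, 8.46, 8.15 and 8.45 in the deep types (log2 fold change -3.17 ± 0.11 SE, adjusted p = 1.1e-12). The groups stood far apart, as they did for the other members named here. Cox7a2, the common form of a small complex IV subunit, fell by 3.02 on the log2 scale, from 4.29 to 4.51 in deep types to 0.567 to 0.963 in shallow types. Ndufb5 fell by 3.01 and Ndufb10 by 2.99, both accessory subunits of complex I. Atp5mpl, a small subunit of ATP synthase, fell by 2.99. Cox7a2l, which joins complexes III and IV into supercomplexes, fell by 2.43 ± 0.14. Atpif1, the inhibitor protein of ATP synthase, which the rule did not take in, fell by 2.42 ± 0.11.

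The 5 nuclear members that did not pass the test were the pseudogene Cox5b-ps and 4 others. They were Ndufs1, the largest iron-sulfur subunit of complex I, at -0.26 ± 0.14 (adjusted p = 0.13), the assembly factors Ndufaf5, at 0.01 ± 0.21, and Ndufaf6, at -0.32 ± 0.21, and Ndufa4l2, at -1.17 ± 1.03. Ndufs4, at -0.90 ± 0.13, Ndufaf7, at -0.73 ± 0.21, and Ndufaf2, at -0.58 ± 0.12, fell less than the rest. The member that rose was a second gene row with the symbol Atp5o, ENSMUSG00000116933, at 0.89 ± 0.18 (adjusted p = 0.00035), whereas the row that holds most Atp5o reads, ENSMUSG00000022956, fell by 2.62 ± 0.11. How reads were split between the Atp5o rows is uncertain, and both are counted as members.

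The members with small changes were mostly long genes. The 60 nuclear members under 10 kb had a median log2 fold change of -2.65, the 20 of 10 to under 30 kb -2.64, and the 5 of 30 kb or more (Ndufs1, Ndufa10, Ndufs4, Ndufaf5 and Ndufaf2) -0.58. Among all genes outside mitochondrial genes, the medians were -1.72 for 2997 genes under 10 kb, -0.53 for 4175 of 10 to under 30 kb and 0.59 for 6012 longer genes. Across genes, which are not independent replicates, Spearman's rho of length with log2 fold change was 0.26 for 85 members and 0.72 for 13184 genes with a length. In all 3 classes the median of the members lay below that of all genes.

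**Figure D3:**
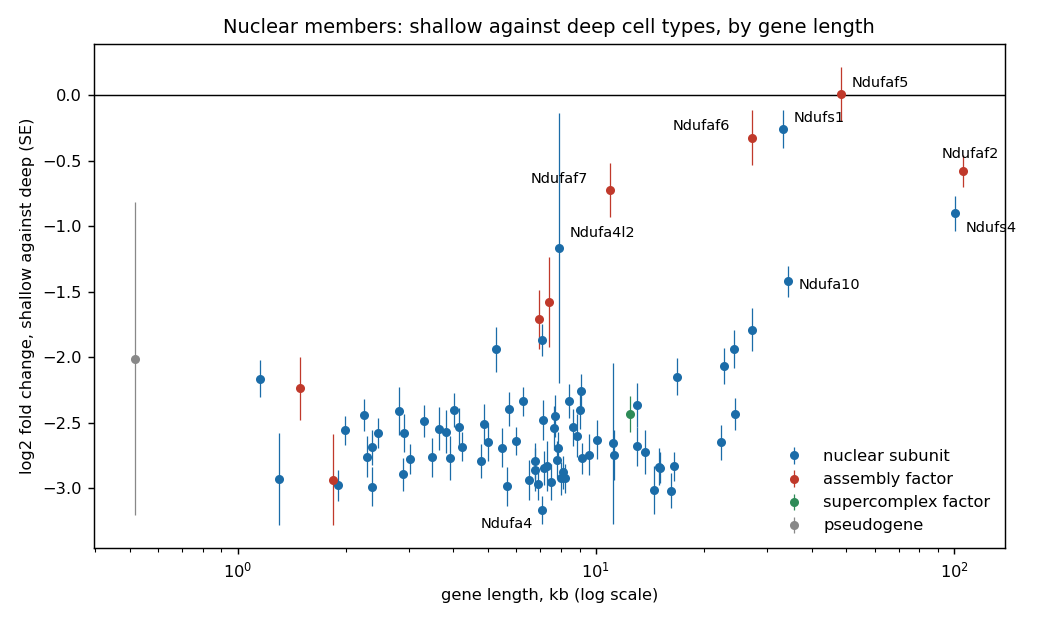
Log2 fold change of nuclear members between shallow and deep types (SE bars) against gene length on a log axis, coloured by class, with labels on members named in the text. Most members of all lengths under 30 kb lie between -2 and -3.2, and the 5 longest lie between -1.42 and 0.01.

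Of the other lists, most genes of the mitochondrial and the cytosolic ribosome fell in the shallow types, where 34.1% of all genes fell and 26.8% rose. Of the mitochondrial ribosome, 75 of 77 genes fell (median log2 fold change -2.23), led by Mrpl34 at -3.45. Of complex II with Cyc1 and cytochrome c, 6 of 6 fell, with Cycs (cytochrome c) at -3.05, Sdhd at -2.86 and Cyc1 at -2.11. Of 27 assembly factors outside the rule, 14 fell and 2 rose, with Sco2 at -3.94, Cox20 at -3.32 and Surf1 at -3.25. Of 9 genes of mitochondrial transcription and RNA, 7 fell and 1 rose, and Tfam, which packages and transcribes mitochondrial DNA, was at -1.99. Of 13 genes of the citric acid cycle, 8 fell and 2 rose, with Mdh2 at -2.33. The 8 nuclear regulators had a median of 0.43. Of them 1 rose, the transcription factor Nrf1 at 1.15, and 1 fell, Yy1 at -0.45, while with library totals 4 rose and Yy1 did not pass the test. Of 94 genes taken in by the symbol rule for cytosolic ribosomal proteins, 84 fell and 4 rose, with a median of -2.67, close to that of the nuclear members.

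The makeup of the mitochondrial transcripts was similar in shallow and deep types, with small differences that repeated over suspensions. The assay counts transcripts at their 3′ ends and its counts are not divided by length, so shares were compared for 1 gene at a time. Of mitochondrial UMIs, mt-Co3 (a core subunit of complex IV) took 20.3% ± 0.658 in shallow and 20.3% ± 0.589 in deep types. mt-Cytb, the mitochondrial subunit of complex III, took 17.1% ± 0.449 and 16.6% ± 0.222, and mt-Co2 15.6% ± 0.250 and 16.3% ± 0.238. mt-Atp6, a proton channel subunit of ATP synthase, took 15.3% ± 0.317 and 14.9% ± 0.293. mt-Co1, the catalytic subunit of complex IV, took 10.1% ± 0.383 and 10.6% ± 0.323. Over suspensions these groups overlapped for mt-Co3, mt-Cytb, mt-Atp6 and mt-Co1, and for mt-Co2 the shallow types lay below the deep types. Paired by suspension, the shallow share was the higher one in 4 of 4 suspensions for mt-Cytb and mt-Atp6 and in 3 of 4 for mt-Co3, and the lower one in 4 of 4 for mt-Co1, mt-Nd1 and mt-Nd3. Among the 7 complex I genes, mt-Nd1 took 7.72% and 8.09%, mt-Nd4 6.94% and 6.39%, mt-Nd2 5.12% and 4.64%, mt-Nd3 0.903% and 1.05%, mt-Nd5 0.644% and 0.705%, mt-Nd4l 0.205% and 0.253%, and mt-Nd6 0.0444% and 0.0470%. For mt-Nd4 and mt-Nd2 the suspensions of the shallow types lay above all those of the deep types, and for mt-Nd4l below them. mt-Atp8 took 0.0644% and 0.0643%. In log2 fold change the rise between the groups ran from 2.81 ± 0.10 for mt-Nd4l to 3.26 ± 0.10 for mt-Nd2.

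Some mitochondrial genes overlap in the annotation (RefSeq, GRCm38.p6, the build of the reads), and reads in a stretch shared on the same strand cannot be told apart. mt-Atp8 and mt-Atp6 share 43 bases at chrMT:7927-7969, and mt-Nd4l and mt-Nd4 share 7 bases at chrMT:10167-10173. mt-Nd5 and mt-Nd6, which lie on opposite strands, share 14 bases at chrMT:13552-13565. The counts of mt-Atp8, mt-Nd4l and mt-Nd6 were the lowest of the 13, and what the overlaps do to the counts was not tested.

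**Figure D4:**
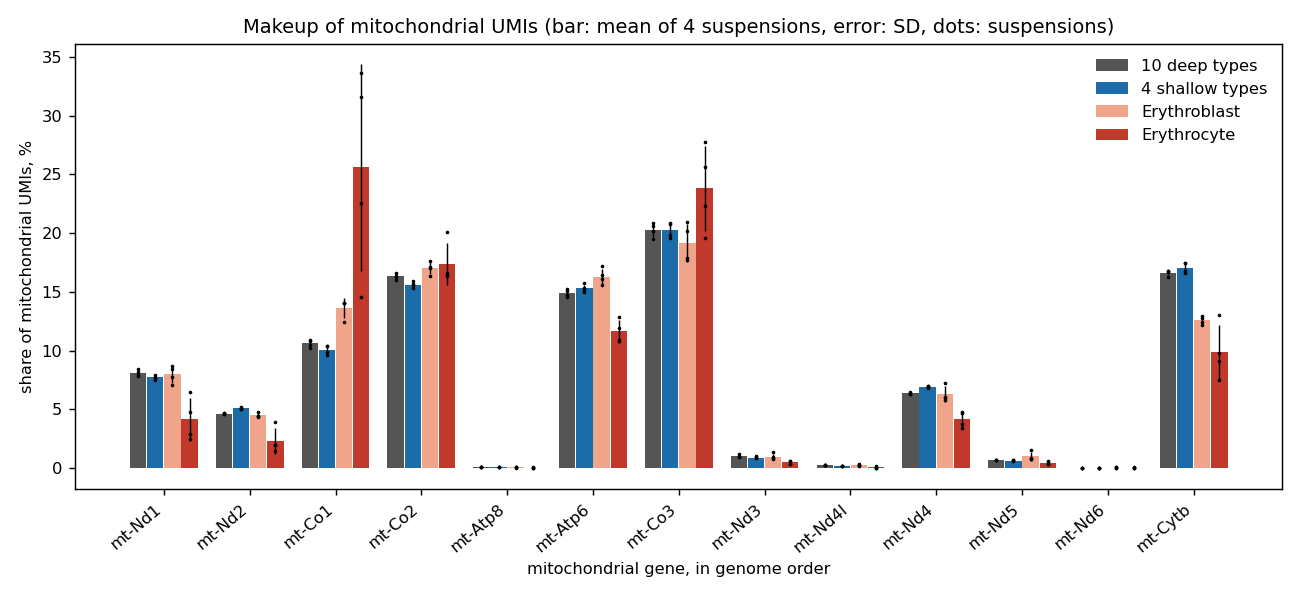
Share of each of the 13 mitochondrial genes in the mitochondrial UMIs of the deep, shallow, Erythroblast and Erythrocyte groups (bars, mean of 4 suspensions; lines, SD; dots, suspensions), in genome order. Deep and shallow bars lie close for each gene, and mt-Co1 takes 25.6% ± 8.79 in Erythrocyte against 10.6% in the deep types.

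Most nuclear subunits and mitochondrial members had similar levels across the deep types. Of 75 nuclear subunits with 1000 or more UMIs there, the highest type exceeded the lowest by a median factor of 1.53, and 6 exceeded 2. For 11 mitochondrial members the median factor was 1.42 and none exceeded 2, and for 8 assembly factors it was 2.01 with 4 above 2. Among all 8174 genes over the same floor of 1000 UMIs the median was 2.70 and 72.4% exceeded 2. These genes were not matched to the members in abundance, and counting noise widens this factor in genes with few UMIs. The widest member was Cox6b2, the second form of a complex IV subunit, with 7.79 between Chondrocyte (0.456 per 10000) and Neuroectoderm/Glia (0.0585), followed by the minor Atp5o row with 4.35 and the assembly factor Ndufaf8 with 2.78. The lower Cox6b2 level lay below the 0.12 of droplets of 100 to under 300 UMIs, so its factor and rank are uncertain.

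Nuclear-encoded genes were higher in Myoblast/Cardiomyocyte than in the other deep types together. The highest mean level among the deep types was that of Chondrocyte, at 273 ± 6.70 per 10000, which overlapped with the 270 ± 3.48 of Myoblast/Cardiomyocyte. The level of nuclear subunits was 267 to 275 per 10000 there, higher than in the deep types as a whole by a factor of 1.14 (1.11 to 1.18), and the ratio was lower by a factor of 1.22 (1.18 to 1.24). Against the other 9 deep types, 77 of 86 nuclear members rose and 1 fell, where 24.9% of 13129 genes rose and 25.3% fell. With library totals in place of TMM scaling the median of all genes moved from -0.02 to -0.24, 64 nuclear members rose and 3 fell (14.6% and 39.4% of all genes). For mitochondrial members the direction depended on the scaling, with 6 of 13 higher and 0 lower by TMM and 0 higher and 6 lower by library totals. The ratio needs no scaling.

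In Myoblast/Cardiomyocyte the largest rise was that of Cox4i2, a form of complex IV subunit 4, from 0.0532 to 0.0836 per 10000 in the other deep types to 0.0979 to 0.159 (log2 fold change 0.97 ± 0.16, adjusted p = 0.0014). This rise is against the other deep types in sum. Over all suspensions Cox4i2 stood at 0.114 there, below Epithelial Cell (0.262), Hematoendothelial Progenitor/Endothelium (0.137) and Gut Mesenchyme/Amniotic Mesoderm (0.116). The remaining deep types were lower, down to 0.0100 in CNS Neuron, and droplets of 100 to under 300 UMIs had 0.0337. Atp5g1, 1 of the 3 genes for the ring subunit c of ATP synthase, had 5.65, 5.90, 5.44 and 5.75 per 10000 in F0_8, F0_9, F1_1 and F1_mix against 3.88, 3.96, 3.72 and 3.93 (0.77 ± 0.04, adjusted p = 1.3e-06). The other 2 ring genes rose as well, Atp5g3 by 0.59 and Atp5g2 by 0.43. The assembly factors Ndufaf6 and Ndufaf2 rose by 0.74 and 0.72, and Uqcr10, a small subunit of complex III, by 0.63. The minor Atp5o row fell by 0.82. Cox7a2l was at -0.14 ± 0.08 and did not pass the test.

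Of the lists outside the rule, 72 of 77 genes of the mitochondrial ribosome were higher in Myoblast/Cardiomyocyte (Mrpl12 at 0.92), as were 6 of 6 of complex II with Cyc1 and cytochrome c (Cycs at 0.86), 9 of 13 of the citric acid cycle (Fh1 at 0.73), 5 of 9 of mitochondrial transcription and RNA (Tfam at 0.49) and 10 of 27 outside assembly factors (Uqcc2 at 0.71). Of 8 regulators 3 were higher and 2 lower. Ppargc1b, a coactivator of mitochondrial genes, was at 1.60 and Pprc1 at 0.68, while the nuclear receptor Esrra fell by 0.66. The cytosolic ribosomal list was higher too, with 85 of 94 genes. These counts are by TMM, by which 24.9% of all genes were higher and 25.3% lower. With library totals, 57 mitochondrial ribosome genes, 5 of complex II with Cyc1 and cytochrome c and 5 of the citric acid cycle were higher. So were 2 of mitochondrial transcription and RNA, 5 outside assembly factors, 2 regulators and 81 cytosolic ribosomal genes, beside 14.6% of all genes. Those lower with library totals, beside 39.4% of all genes, were 4 outside assembly factors, 4 cytosolic ribosomal genes, 3 regulators, 1 gene of the citric acid cycle and 1 of the mitochondrial ribosome. Atpif1 was at 0.27 by TMM and at 0.051 with library totals, where it did not pass the test (adjusted p = 0.30). The 3 lower cytosolic genes by TMM included Rps6kl1 and Rps23rg1, which the symbol rule takes in although they are not ribosomal proteins.

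From Neuronal Progenitor to CNS Neuron the balance shifted towards mitochondrial transcripts. The ratio was 0.915, 0.884, 0.785 and 0.777 in the progenitors of F0_8, F0_9, F1_1 and F1_mix, and 1.05, 1.06, 1.09 and 0.941 in the neurons. The neurons were higher in every suspension, by a factor of 1.24 (1.14 to 1.39), and the groups did not overlap. Of 13 mitochondrial members 8 rose and 0 fell, with mt-Cytb at 0.37 ± 0.04 and mt-Co3 at 0.36 ± 0.04 (adjusted p = 5.7e-06 and 4.1e-06). Of 84 nuclear members 26 fell and 14 rose, close to the 30.6% of 10469 genes that fell and below the 29.8% that rose. With library totals, 6 mitochondrial members rose, 32 nuclear members fell and 11 rose. DESeq2 called 12 nuclear members lower and 6 higher, and without F0_9 edgeR called 9 higher.

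The nuclear members with the largest falls in CNS Neuron were Cox6b2, from 0.135 to 0.215 per 10000 in progenitors to 0.0434 to 0.0859 in neurons (log2 fold change -1.36 ± 0.24), and the assembly factors Ndufaf2 (-0.94), Ndufaf6 (-0.79) and Ndufaf8 (-0.72). Droplets of 100 to under 300 UMIs had Cox6b2 at 0.12, above all neuron values and just below the lowest progenitor value. How much of its level is background is not known, so its fold and rank are uncertain. Ndufa12, an accessory subunit of complex I, fell from 3.44, 3.37, 3.49 and 3.63 per 10000 to 2.09, 2.14, 2.15 and 2.12 (-0.68 ± 0.06, adjusted p = 1.8e-06), with no overlap. The minor Atp5o row rose by 0.89, Cox7a2l by 0.54, Ndufaf3 by 0.51, Ndufv3 by 0.38 and Atp5md by 0.35. Cox7a2l stood at 3.04 to 3.53 per 10000 in neurons and 2.21 to 2.44 in progenitors. Atp5g2 and Atp5g1 fell by 0.40 and 0.33, and Atp5g3, at -0.15 ± 0.06, did not pass the test. Atpif1 rose by 0.34.

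Around these members, the counts stand beside the 30.6% of all genes that fell in CNS Neuron and the 29.8% that rose. In it 39 of 77 genes of the mitochondrial ribosome fell and 5 rose (Mrps27 at -1.08), and 64 of 91 cytosolic ribosomal genes fell and 4 rose. Of the 7 regulators tested 6 fell, among them Ppargc1a (-2.09) and Pprc1 (-1.91), and Esrra rose by 1.49. Tfam fell by 0.90 and Tfb1m by 1.36, and Mterf4 rose by 0.51. Suclg2, a subunit of succinyl-CoA synthetase, fell by 2.61, and of the citric acid cycle list 4 of 13 fell and 2 rose, so the share that fell was close to that of all genes. Of complex II with Cyc1 and cytochrome c, 3 of 6 fell, with Sdha at -0.71. Of 26 outside assembly factors 5 fell and 2 rose, with Cox18 at -1.17 and Cox19 at 0.87, and the share that fell was below that of all genes.

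Erythrocyte had the lowest mitochondrial share of gene UMIs of all 16 types, and what could be said of red cells depended on how globins were treated. Erythroblast had 64, 52, 7 and 21 cells in F0_8, F0_9, F1_1 and F1_mix, and Erythrocyte 12, 23, 9 and 16. The mitochondrial share was 2.07%, 1.84%, 1.26% and 2.06% in Erythroblast and 0.237%, 0.269%, 0.748% and 0.591% in Erythrocyte. Each Erythrocyte value lay below each Erythroblast value, and Erythroblast overlapped with Neuronal Progenitor. The median Erythroblast cell held 405 to 711 mitochondrial UMIs, more than the 303 to 349.5 of the median deep cell. It was also deeper, with 26877 to 41188 gene UMIs against 12558 to 15578.5. Globins took 0.83% to 15.6% of gene UMIs in Erythroblast and 59.2% to 80.9% in Erythrocyte. With globins left out of the denominator the mitochondrial share was 2.36%, 2.18%, 1.27% and 2.10% in Erythroblast and 1.24%, 1.08%, 1.83% and 1.63% in Erythrocyte, so the groups overlapped and F1_1 turned. The nuclear subunit level was 280, 280, 313 and 305 per 10000 in Erythroblast and 70.7, 84.4, 143 and 121 in Erythrocyte. With globins also left out of the denominator it was 320 ± 9.20 in Erythroblast and 353 ± 15.8 in Erythrocyte, so the order turned. Per cell, the median number of nuclear subunit UMIs was 754 to 1393 in Erythroblast and 147.5 to 517 in Erythrocyte, with no overlap.

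The ratio, which is free of scaling, was lower in Erythrocyte than in Erythroblast in 3 of 4 suspensions and higher in F1_1, where Erythroblast had 7 cells. It was 0.755, 0.670, 0.407 and 0.688 in Erythroblast and 0.335, 0.319, 0.527 and 0.490 in Erythrocyte, and the groups overlapped. By edgeR with TMM scaling, 30 of 82 nuclear members were higher in Erythrocyte and 2 lower, where 12.7% of 4568 genes were higher and 11.3% lower, but with library totals, which leave globins their full weight, 0 were higher and 78 lower (1.2% and 91.4% of all genes, median of all genes -2.26 in place of -0.14). The members with the largest rise by TMM were Ndufa6 and Atp5e (both 1.76), Atp5j2 (1.62), Cox6a1 (1.49) and Ndufa3 (1.41), and with library totals they were at -0.40, -0.40, -0.55, -0.68 and -0.75. Atp5e, a central stalk subunit of ATP synthase, stood at 2.78, 3.35, 4.76 and 5.0 per 10000 in Erythrocyte and 4.74, 5.02, 5.06 and 4.89 in Erythroblast. Ndufb5 was lower by both scalings, at 0.0422, 0.274, 0.821 and 0.427 in Erythrocyte against 2.52, 2.45, 3.74 and 3.67 (-1.07 ± 0.33 by TMM, adjusted p = 0.028). That call was lost by TMM without F0_8, F0_9 or F1_mix (adjusted p = 0.0503, 0.0799 and 0.115) and without the pairing by suspension (0.0655). The 30 higher calls became 15 without F0_9, 14 without F1_mix and 7 without the filter on low counts. Of 11 mitochondrial members tested, 1 was higher by TMM and 2 lower (mt-Nd5 at -0.98 and mt-Nd4l at -1.87), and with library totals 11 were lower.

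The makeup of mitochondrial transcripts in red cells differed from that of other types. mt-Co1 took 33.6%, 31.6%, 14.6% and 22.6% of mitochondrial UMIs in Erythrocyte, 14.1%, 14.1%, 12.4% and 14.0% in Erythroblast, and 10.2% to 10.9% in the deep types. Each Erythrocyte value lay above each Erythroblast value, and each of those above the deep types in sum. By TMM the log2 fold change of mt-Co1 from Erythroblast to Erythrocyte was 0.81 ± 0.26 (adjusted p = 0.034), and with library totals it was -1.36. The call by TMM was lost without the pairing by suspension and without F0_9, F1_1 or F1_mix. mt-Nd1 took 4.17% ± 1.84 in Erythrocyte and 7.98% ± 0.701 in Erythroblast. Erythrocyte held 1619 UMIs of mt-Co1 and 343 of mt-Nd1 in 60 cells. Among deep types, Hematoendothelial Progenitor/Endothelium had a high mt-Co1 share as well, at 15.3% ± 0.639, which overlapped with Erythrocyte and lay above Erythroblast.

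Around the members in red cells, by TMM, 14 of 74 genes of the mitochondrial ribosome were lower in Erythrocyte and 1 higher, and 7 of 82 cytosolic ribosomal genes were higher and 1 lower, beside the 11.3% of all genes lower and 12.7% higher. With library totals all 74 and all 82 were lower, as were 91.4% of all genes. Sdhd of complex II was lower by both scalings, at -2.07 by TMM and -4.17 with library totals, as were Tfam (-1.85 and -3.88), Idh3a (-2.12 and -4.18) and Mrpl45 (-3.52 and -5.45). The direction of Atpif1, which is known to be needed for heme synthesis, turned with the scaling, from 1.18 ± 0.25 by TMM to -0.99 with library totals. The assembly factors Cox20 (1.21 and -0.95) and Cox17 (0.86 and -1.30) turned as well.

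Several subunits have 2 or more genes, and the share of each gene within its group needs no scaling. The subunit c ring of ATP synthase has the genes Atp5g1, Atp5g2 and Atp5g3, which encode the same mature protein. Atp5g1 gave 46.1% of their UMIs in Erythroblast (47.0%, 44.8%, 47.8% and 45.6% in F0_8, F0_9, F1_1 and F1_mix) and 26.7% in the deep types (27.2%, 27.3%, 25.7% and 26.6%). The red cells lay above every deep type, whose shares ran from 23.1% in Ependymal Cell to 30.6% in Neuroectoderm/Glia. In Erythrocyte the share was 42.7% of 621 UMIs (37.6% to 53.7%). Atp5g2 gave 28.3% in Erythroblast and 48.8% in the deep types, and Atp5g3 25.6% and 24.5%. In level, Atp5g1 stood at 8.29, 7.60, 11.6 and 10.6 per 10000 in Erythroblast. In cells labelled Foregut, Atp5g3 gave 42.5% of 87 UMIs (exact binomial 95% interval 32.0% to 53.6%, which covers counting error only).

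Cox6b2, the second gene of a complex IV subunit and known from testis, gave 26.0% of Cox6b UMIs in Erythroblast (26.9%, 29.4%, 19% and 19%) and 30.7% in Erythrocyte (27.5%, 36.4%, 19.4% and 34.1%). The deep types together gave 5.07% (4.19% to 6.08%), from 1.22% in Neuroectoderm/Glia and 1.26% in CNS Neuron to 8.56% in Epithelial Cell. Its level in Erythroblast was 2.13, 2.28, 1.36 and 1.29 per 10000, and in droplets of 100 to under 300 UMIs 0.12. The upstream sequences of these genes (RefSeq, GRCm38.p6, 250 bases before the annotated start on the minus strand, written 5′ to 3′) are shown because the genes of each group differ in their use between red cells and other types. Capitals mark a match to the NRF1 letters GCATGCGC in Atp5g2 and to the ETS letters CCGGAAG, read on the other strand as CTTCCGG, in Cox6b1. They lie at chr11:96075632-96075881 for Atp5g1, chr15:102671048-102671297 for Atp5g2, chr2:73911327-73911576 for Atp5g3, chr7:30626115-30626364 for Cox6b1 and chr7:4753095-4753344 for Cox6b2.
Atp5g1: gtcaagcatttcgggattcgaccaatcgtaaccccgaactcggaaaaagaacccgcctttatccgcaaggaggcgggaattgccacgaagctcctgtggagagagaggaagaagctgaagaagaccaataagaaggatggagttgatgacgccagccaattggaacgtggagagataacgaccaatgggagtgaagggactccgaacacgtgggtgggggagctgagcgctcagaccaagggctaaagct
Atp5g2: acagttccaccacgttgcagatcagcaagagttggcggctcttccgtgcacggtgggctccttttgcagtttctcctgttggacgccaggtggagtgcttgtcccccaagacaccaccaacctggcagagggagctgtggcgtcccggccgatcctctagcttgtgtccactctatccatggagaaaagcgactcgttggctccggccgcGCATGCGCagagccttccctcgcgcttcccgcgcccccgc
Atp5g3: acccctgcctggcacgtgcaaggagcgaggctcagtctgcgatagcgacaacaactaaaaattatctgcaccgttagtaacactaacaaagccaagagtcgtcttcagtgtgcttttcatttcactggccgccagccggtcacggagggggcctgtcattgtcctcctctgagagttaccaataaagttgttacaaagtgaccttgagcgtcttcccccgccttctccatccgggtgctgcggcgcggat
Cox6b1: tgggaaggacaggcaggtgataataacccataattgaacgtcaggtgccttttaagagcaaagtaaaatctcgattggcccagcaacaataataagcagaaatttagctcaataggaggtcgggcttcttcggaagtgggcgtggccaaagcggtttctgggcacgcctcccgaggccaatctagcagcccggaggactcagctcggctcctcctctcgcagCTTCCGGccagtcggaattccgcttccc
Cox6b2: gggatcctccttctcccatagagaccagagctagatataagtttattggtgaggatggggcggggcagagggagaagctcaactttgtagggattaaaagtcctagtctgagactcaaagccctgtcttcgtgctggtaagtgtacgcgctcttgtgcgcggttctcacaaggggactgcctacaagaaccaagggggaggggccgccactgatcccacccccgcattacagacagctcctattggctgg

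Atp5g1, Atp5g3 and Cox6b2 held none of the motifs searched in this window. Over the nuclear subunits, 66 were matched by symbol to a promoter window of 250 bases before to 50 after the start, and 29 of them (43.9%) held at least 1 of 3 motifs on either strand, against 14.9% of 27025 genes. The NRF1 letters GCATGCGC or GCGCATGC were in 13.6% of subunits and 3.05% of genes, the ETS letters CCGGAAG or CTTCCGG in 22.7% and 9.93%, and the YY1 letters AAGATGGC or GCCATCTT in 15.2% and 3.19%. These matches describe letters in a window and not binding. The 27025 genes were all those with a window and were not matched to the subunits in expression or base content.

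Ndufa4l2, a relative of Ndufa4 known to be induced by low oxygen, gave 5.04% of the summed Ndufa4 and Ndufa4l2 UMIs in Erythroblast (6.07%, 3.08%, 8.61% and 4.82%) and 0.232% in the deep types (0.141% to 0.334%). In Erythrocyte it was at 0 of 400 UMIs, which allows a share of up to 0.918% (upper bound of the exact 95% interval). Its level in Erythroblast was 0.508, 0.254, 0.754 and 0.408 per 10000, and in droplets of 100 to under 300 UMIs 0.0121. It was lower in Erythrocyte by edgeR (adjusted p = 0.0038), and no fold is given because all 4 Erythrocyte sums were at 0.

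**Figure D5:**
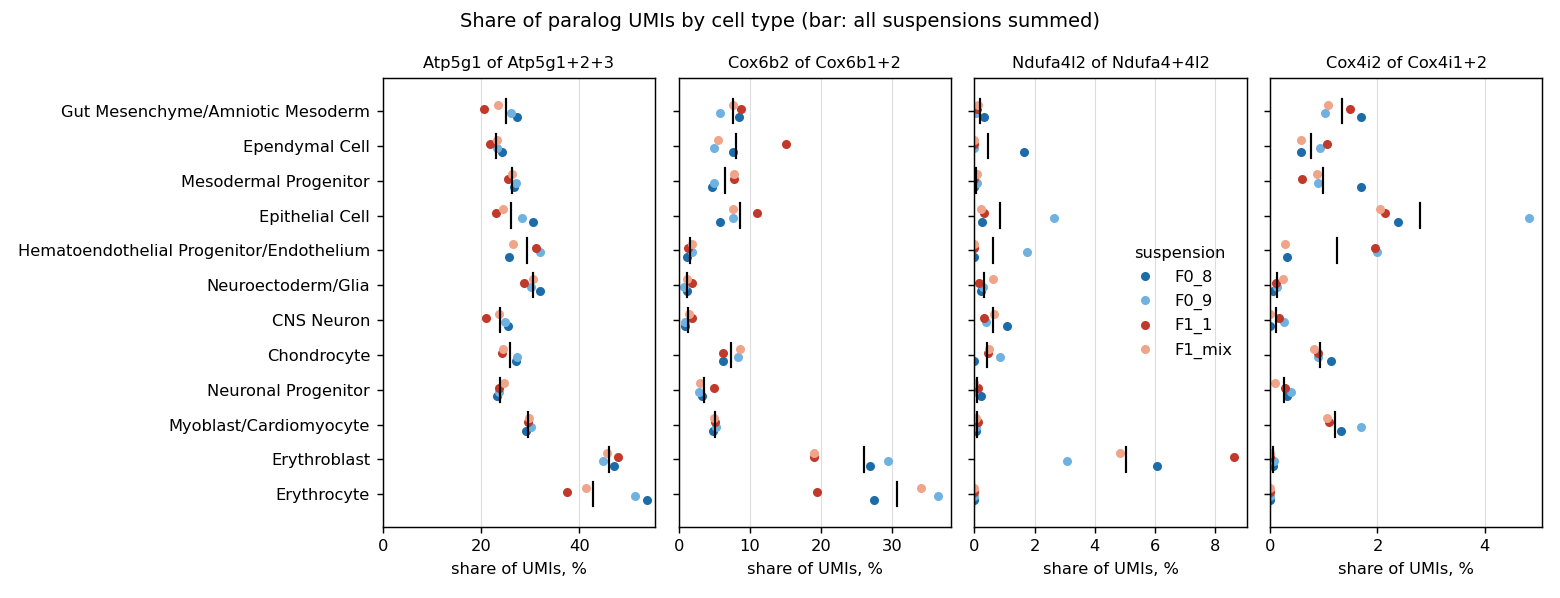
Share of Atp5g1, Cox6b2, Ndufa4l2 and Cox4i2 in the UMIs of their paralog groups in 12 deep and red cell types, 1 point for each suspension and a bar at the share of the summed UMIs. Atp5g1 and Cox6b2 are highest in Erythroblast and Erythrocyte, Ndufa4l2 in Erythroblast at 5.04%, and Cox4i2 in Epithelial Cell at 2.80%.

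Cox4i2, known as the form of lung and of low oxygen, gave 0.873% of Cox4i UMIs in the deep types. It was highest in Epithelial Cell, at 2.80% (2.38%, 4.84%, 2.14% and 2.04%), where F0_9 stood apart, and next in Gut Mesenchyme/Amniotic Mesoderm, at 1.35%. It was low in CNS Neuron, at 0.103%, and in Erythroblast, with 2 of 4806 UMIs, and was 0 of 587 in Erythrocyte (exact 95% upper bound 0.627%). The muscle forms of complex IV subunits were rare at this stage. Cox6a2 had 18 UMIs in the deep types, of which 17 were in Myoblast/Cardiomyocyte, 10 in F0_8, 7 in F1_1 and 0 in the other suspensions, which is 0.458% of Cox6a UMIs there. Its level was 0.0140 per 10000 in Myoblast/Cardiomyocyte and 0.00944 (7 UMIs) in droplets of 100 to under 300 UMIs, close to background. Cox8b had 5 UMIs, all in Myoblast/Cardiomyocyte of F0_8, and 0 in droplets of 100 to under 300 UMIs. Cox7a1, the heart and muscle form, had 70 UMIs in the deep types, with 7 in Myoblast/Cardiomyocyte, where its level of 0.00577 per 10000 lay below the 0.00674 of these droplets and is read as background. It was higher in other types, at 0.0251 in CNS Neuron (15 UMIs) and 0.0224 in Neuroectoderm/Glia (13 UMIs). Cox7b2 had 15 UMIs in the deep types, at 0.00252 per 10000 against 0.00539 in the droplets, where it had 4. Of the 15 UMIs, 7 were in Gut Mesenchyme/Amniotic Mesoderm, at 0.00795, and such counts are too few to be told from background.

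Founders and F1 embryos, the only conditions of the study, were compared within 13 cell types, those in which every suspension held 20 cells or more. By edgeR, 0 of 854 pairs of a nuclear member and a cell type and 0 of 165 pairs of a mitochondrial member and a cell type passed the threshold, against 0.752% of 99241 pairs over all genes, and DESeq2 gave 0 as well. At an unadjusted p under 0.05 there were 59 nuclear pairs (6.91%) and 30 mitochondrial pairs (18.2%), against 10.2% of all pairs, so the nuclear share lay below that of all genes and the mitochondrial share above it. With 1 suspension left out, 27 mitochondrial pairs were higher in founders without F1_1, 12 without F1_mix and 4 without F0_8. Each of these fits leaves 1 arm with a single suspension, which is assumed to vary like those of the other arm. The lowest adjusted p was that of Atp5b, the catalytic beta subunit of ATP synthase, in Neuronal Progenitor, lower in founders by 0.29 ± 0.06 on the log2 scale (0.072), and it was as much lower in Gut Mesenchyme/Amniotic Mesoderm (0.079). Ndufaf4 in Neuroectoderm/Glia (-0.77, adjusted p = 0.085), Ndufa4 in Foregut (1.86, adjusted p = 0.089) and mt-Atp6 in Neuronal Progenitor (0.17, adjusted p = 0.093) came next and did not pass either.

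In 75 of 165 mitochondrial pairs (45.5%) both founder levels lay above both F1 levels, and in 10 below, where 20.8% of all pairs were higher in founders without overlap and 19.8% lower. For nuclear members these counts were 178 and 186 of 854 pairs. The pairs of a cell type share their cells and the mitochondrial genes share their transcripts, so they do not count as independent. The ratio was higher in both founders than in both F1 suspensions in 8 of 16 types, lower in 2 and overlapping in 6. In Neuronal Progenitor it was 0.915 and 0.884 in founders and 0.785 and 0.777 in F1. In Neuroectoderm/Glia it was 1.10 and 1.17 in founders and 1.01 and 0.943 in F1. F1_mix had the lowest ratio in 11 of 16 types and in 8 of the 10 deep types. Depth differed between the generations as well. The median cell of the deep types held 12558 and 12932 gene UMIs in founders against 15578.5 and 14990 in F1. In the shallow types these medians were 1104.5 and 980 against 1244.5 and 1267. The part of depth in the ratio was not tested. The difference in ratio was not tested, and an exact two-sided permutation of 2 against 2 suspensions cannot give a p below 0.333.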

How the data were processed

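Cells of 4 suspensions were labelled with oligos (CellPlex) and sequenced as 1 library of the 10x Chromium 3′ assay. Per the file headers, the deposited counts are UMIs per gene and barcode from Cell Ranger 7.2.0, and the study's methods name GRCm38 with EGFP added, SoupX, Seurat and DoubletFinder. The counts used here were whole numbers, and 3 columns of the authors' cell table (barcode, suspension and cell type) were used and 19 were not. Members, gene lists and alternatives were chosen with earlier results of these data known. UMIs were summed by cell type and suspension and tested with edgeR 4.0.16 (quasi-likelihood, TMM, suspension as a block, Benjamini-Hochberg adjustment over all genes tested, threshold 0.05) in R 4.3.3. DESeq2 1.42.0 was an alternative. The block was used because same-named sums come from the same embryo or mixture. Deviations of paired sums correlated at 0.0224 to 0.162 for shallow against deep, 0.0903 to 0.131 for Myoblast/Cardiomyocyte, 0.0900 to 0.213 for CNS Neuron and 0.0517 to 0.287 for red cells. Founders and F1 were compared without a block in types where every suspension held at least 20 cells. Levels are UMIs per 10000 UMIs outside mitochondrial genes. The spread is between 4 suspensions of 1 capture, so technical spread between captures is not measured. Named were all mitochondrial members, all paralog groups, Cox7a2l and Atpif1, up to 5 called nuclear members of largest change in each direction with 10 or more UMIs in each sum of the higher group, the 5 founder results of lowest adjusted p, and up to 3 genes of each list. The members of small change in the shallow types and of widest spread in the deep types were named after their values were seen. Only the fits of shallow against deep types and of founders in Neuronal Progenitor were run on simulated counts, with as many rises as falls. The simulation held no shifts in composition such as those from globins, so it says nothing on them. Intervals are exact binomial at 95% and cover counting error only. Figures and tables were made with Python 3.11.15, pandas 2.3.3, numpy 2.4.6, scipy 1.17.1 and matplotlib 3.10.9.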

Additional observations from a re-analysis of the deposited data

Results flagged for a closer look

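In most types that separated the generations, the ratio of mitochondrial to nuclear subunit UMIs was higher in founders, but in Erythrocyte the founder mean was 0.644 of the F1 mean and in Foregut 0.897, with no overlap. These opposite directions were not tested. The Erythrocyte ratios rest on 12 and 23 founder cells and on 9 and 16 F1 cells. Globins took 80.9% and 75.2% of their gene UMIs in founders and 59.2% and 63.8% in F1. The 328 deposited barcodes without a cell type, which no comparison used, had a ratio of 4.72 in sum, 4.97, 6.63, 4.88 and 3.48 in F0_8, F0_9, F1_1 and F1_mix. Their median barcode had 94.6 to 128 and 36.7% to 55.7% mitochondrial UMIs.

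In 16 of 212 groups of 4 suspensions, 1 suspension lay far from the others, and chance gives about 1 in 20 groups. The mitochondrial share of Endodermal Progenitor was 42.4% in F1_mix. Among shares of mitochondrial UMIs these were mt-Nd6 in the deep types of F0_8 (0.0407%), mt-Cytb in the deep types of F0_9 (16.3%), mt-Co1 (12.4%) and mt-Nd5 (1.55%) in Erythroblast of F1_1, where there were 7 cells, mt-Co2 in Erythrocyte of F0_8 (20.1%) and mt-Nd6 in Erythrocyte of F0_9 (0.0727%, 1 UMI). Among paralog shares they were Cox4i2 in Epithelial Cell of F0_9 (4.84%), Cox6b2 in Neuronal Progenitor of F1_1 (4.98%), and Ndufa4l2 in Ependymal Cell of F0_8 (1.65%), in Epithelial Cell (2.63%) and Hematoendothelial Progenitor/Endothelium (1.75%) of F0_9 and in Myoblast/Cardiomyocyte of F1_1 (0.132%). Among levels per 10000 they were Ndufaf6 in Myoblast/Cardiomyocyte of F0_9 (0.478), Uqcr10 in the other deep types of F1_mix (2.19) and Cox6b2 in Neuronal Progenitor of F1_1 (0.215).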

How the results depend on the processing

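Of the summary values, 245 kept their direction and side of the threshold, or stayed within the set limits, under the alternatives tried, and 60 moved. For shallow against deep types, the alternatives other than single shallow types gave the same calls for every named member. With Endodermal Progenitor or Foregut as the only shallow type 0 nuclear members were higher, so the call of the minor Atp5o row was lost. The causes of the changes below were not tested. Library totals, single shallow types, the depth window and the mitochondrial share outside globins were chosen after seeing the data.

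Without the replicate block, which pairs sums by suspension, the counts of nuclear members lower, nuclear higher and mitochondrial higher in shallow types stayed at 81, 1 and 13. Myoblast/Cardiomyocyte then had 5 mitochondrial members higher, CNS Neuron 25 nuclear members lower and 7 mitochondrial members higher, and Erythrocyte 1 nuclear member lower and 0 mitochondrial members higher. For founders against F1 no paired analysis was possible because the generations share no suspension.

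In Myoblast/Cardiomyocyte, library totals gave 3 nuclear members lower, and 0 mitochondrial members higher and 6 lower, and DESeq2 gave 3 mitochondrial members higher. Leaving out 1 suspension gave 1 to 2 nuclear members lower. With library totals the log2 fold changes were mt-Nd2 -0.039, mt-Co1 -0.19, mt-Co2 -0.069, mt-Atp6 -0.10, mt-Co3 -0.15, mt-Nd3 -0.15, mt-Nd4 -0.14, mt-Nd5 -0.13 and mt-Cytb -0.19, and without the filter on low counts mt-Co1 was at -0.0074 and mt-Cytb at -0.0044. In CNS Neuron, DESeq2 gave 6 nuclear members higher and 12 lower, and leaving out 1 suspension gave 9 to 15 higher. With 1 suspension left out mt-Atp8 ran from -0.35 to 0.034 (without F0_9) and mt-Nd4l from -0.013 (without F1_1) to 0.19.

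In Erythrocyte, nuclear members higher numbered 7 without the filter, 0 with library totals and 14 to 27 with 1 suspension left out. Those lower numbered 78 with library totals and 1 to 4 with 1 left out (4 without F1_1). Mitochondrial members higher numbered 0 without the filter or with library totals and 0 to 1 with 1 left out. Those lower numbered 5 with RLE factors, 4 without the filter, 1 by DESeq2, 11 with library totals and 0 to 6 with 1 left out (6 without F1_1). With library totals Ndufa6 and Atp5e were at -0.40, Atp5j2 at -0.55, Cox6a1 at -0.68, Ndufa3 at -0.75, mt-Co1 at -1.36 and mt-Co3 at -1.89. With 1 left out mt-Co2 ran from -0.40 to 0.23 (0.14 without F0_8, 0.23 without F0_9) and mt-Co3 from -0.25 (without F1_1) to 0.62, and without the filter mt-Co3 was at -0.0014.

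For founders against F1, omitting the filter gave 8 nuclear pairs lower, 7 mitochondrial pairs higher and 1 lower, and library totals gave 1 mitochondrial pair higher. Leaving out 1 suspension gave 0 to 1 nuclear pairs higher, 0 to 3 lower, 0 to 27 mitochondrial pairs higher and 0 to 1 lower, in fits whose lone suspension of an arm is assumed to vary like the other arm. As medians over cells, the shallow ratio was 74.6 and the shallow mitochondrial share 28.1%. The nuclear level was 44.4 in shallow and 231 in deep types per 10000 of all gene UMIs. Outside ribosomal protein genes it was 281 in deep types and 383 in Erythroblast, and outside globins 320 in Erythroblast and 353 in Erythrocyte. The mitochondrial share outside globins was 1.45% in Erythrocyte. In cells of 2000 to under 5000 UMIs outside mitochondrial genes the ratio was 26.8 in shallow and 2.76 in deep types, the deep nuclear level 201 and the mitochondrial share 12.4% and 4.75%. A median shallow cell held only 4 or 5 nuclear subunit UMIs, which limits the precision of its values, and Erythroblast of F1_1 rests on 7 cells.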
